A study of Homo sapiens with 6 samples.

Results

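The MAP kinase phosphatases are the dual-specificity phosphatases of the DUSP family that inactivate MAP kinases, and the family was followed here in AGS cells transfected with a small interfering RNA against the deubiquitinase USP36. AGS is an established human gastric adenocarcinoma line. One group of 3 libraries came from cells transfected with a control small interfering RNA (siControl) and the other group of 3 from cells transfected with one directed at DUB1 (siDUB1), and all 6 were libraries of RNA from that 1 line. The 10 genes were chosen by their symbols, as the catalytically active members of the family: DUSP1, DUSP2, DUSP4, DUSP5, DUSP6, DUSP7, DUSP8, DUSP9, DUSP10 and DUSP16. They are 10 of the 18597 genes in each file. No measured value set which genes belong to the family. The family itself was taken up with the comparison of siDUB1 with siControl in these libraries known, so the counts and adjusted p-values below describe its genes and are no independent support for a change.

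MAP kinase phosphatases remove phosphate from both the threonine and the tyrosine of the activation loop of ERK, JNK and p38 kinases. Many of their genes are themselves switched on by MAP kinase signalling, so that the enzymes form a negative feedback. They fall into inducible nuclear enzymes (DUSP1, DUSP2, DUSP4 and DUSP5), cytoplasmic enzymes selective for ERK (DUSP6, DUSP7 and DUSP9), and enzymes selective for JNK and p38 (DUSP8, DUSP10 and DUSP16).

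The unit was FPKM, in which fragments are divided by transcript length and by those mapped in the library, so levels can be compared between genes per length. USP36, for which DUB1 is a synonym, had 9.16, 6.74 and 7.25 FPKM in the siControl libraries against 4.11, 4.75 and 2.59 FPKM after siDUB1, in the order of replicates 1, 2 and 3 that holds for all triplets of values below, so the groups did not overlap (limma, log2 change -0.87, adjusted p = 0.0432). That call was lost without each siControl library in turn (adjusted p of 0.125 to 0.179) and without siDUB1 replicate 1 or 2 (0.0878 and 0.0509). siDUB1 replicate 3 stood apart, with a median of 1.75 FPKM over genes against 2.91 to 3.07 in the others and correlations of at most 0.964 with its group, against at least 0.997 for the remaining pairs within a group. Sequencing depth is unknown, and the labels do not say that replicates were separate transfections, so p-values measure only the spread between these samples. The labels give no siRNA sequence, so an effect of the duplex itself cannot be told apart from that of less USP36. All 6 epithelial markers reached 1 FPKM, with EPCAM between 102 and 266 FPKM and CDH1 between 0.85 and 3.22 FPKM, while no endothelial marker reached 1 FPKM and of the 6 fibroblast markers COL1A1 alone did, that list summing to 18.9 to 19.7 FPKM in siControl and 8.43 to 11.2 FPKM in siDUB1. The summed leukocyte list was 194 to 195 FPKM in siControl and 384 to 651 FPKM in siDUB1, nearly all of it LYZ, the lysozyme gene, and 3 of its 6 markers reached 1 FPKM. Besides LYZ these were CD68, at 7.02, 6.99 and 8.13 FPKM in siControl and 16.6, 17.3 and 19.4 FPKM in siDUB1, and TYROBP. TYROBP stood at 0.31, 0.71 and 0.81 FPKM in siControl and at 1.32, 0.95 and 2.02 FPKM in siDUB1. PTPRC, the pan-leukocyte marker, stayed at 0.37 FPKM or less, and CD3E at 0.08 FPKM or less.

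After siDUB1 most of the expressed MAP kinase phosphatase genes were lower and one, DUSP6, was higher in 2 of 3 libraries. DUSP1, DUSP4, DUSP7 and DUSP8 fell, by 1.81, 0.89, 0.57 and 0.62 on the log2(FPKM + 1) scale. DUSP2 and DUSP10 had lower values in every siDUB1 library without passing the test, and DUSP16 was at control level in 2 of 3. DUSP5 and DUSP9 were barely expressed. In such bulk RNA, fewer cells expressing a gene and less of its RNA per cell cannot be told apart. Of the 10 genes, 8 were at 1 FPKM or more in at least 3 libraries and were tested, and 7 of those reached 1 FPKM in all 6. At an adjusted p under 0.05 (limma, over all 10994 genes tested), 4 of the 8 were lower and 0 higher, where 5.92% of all tested genes were lower and 8.13% higher. At an unadjusted p under 0.05 the counts were 5 lower and 0 higher, where 15.3% and 18.2% of all tested genes were so called. Every siDUB1 library lay below every siControl library for 6 of the 8 genes and above for 0, where 28.5% and 24.8% of all tested genes did so. The median log2 change of the 8 genes was -0.60, against -0.06 over all tested genes. Nothing is read from these counts, since the same comparison brought the family up.

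**Figure D1:**
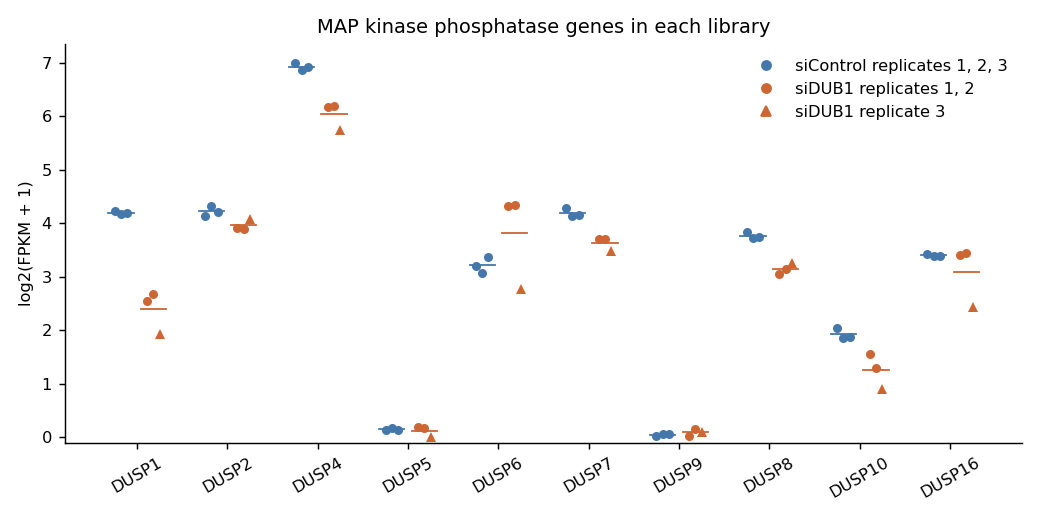
Level of each of the 10 genes as log2(FPKM + 1), 1 point for each library, with a line at the mean of each group of 3. DUSP4 is the most abundant, DUSP1 is the gene whose groups lie farthest apart, and siDUB1 replicate 3 (triangles) parts from its group for DUSP6 and DUSP16.

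Promoters of DUSP1, DUSP8 and DUSP7 are shown because these genes fell. They were taken by smallest adjusted p, among members whose promoter could be shown. Each is the 250 bases before the start of the gene, 5′ to 3′ on the minus strand, which is the coding strand of all 3 (RefSeq, GRCh38.p14). Capitals mark a cyclic AMP response element (CRE, TGACGTCA), its half-site (TGACG) or a TATA box (TATAAA) on either strand.
DUSP1, chr5:172771196-172771445: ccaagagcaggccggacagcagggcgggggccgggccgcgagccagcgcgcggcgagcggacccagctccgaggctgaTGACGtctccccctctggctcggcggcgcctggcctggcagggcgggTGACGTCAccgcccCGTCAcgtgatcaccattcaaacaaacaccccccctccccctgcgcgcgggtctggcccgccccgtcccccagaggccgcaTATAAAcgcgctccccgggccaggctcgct
DUSP8, chr11:1572272-1572521: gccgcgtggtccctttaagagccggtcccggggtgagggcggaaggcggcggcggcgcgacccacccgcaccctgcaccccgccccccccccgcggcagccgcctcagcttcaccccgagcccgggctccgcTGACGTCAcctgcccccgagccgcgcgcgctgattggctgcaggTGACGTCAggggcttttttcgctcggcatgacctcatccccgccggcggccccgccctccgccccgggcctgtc
DUSP7, chr3:52056572-52056821: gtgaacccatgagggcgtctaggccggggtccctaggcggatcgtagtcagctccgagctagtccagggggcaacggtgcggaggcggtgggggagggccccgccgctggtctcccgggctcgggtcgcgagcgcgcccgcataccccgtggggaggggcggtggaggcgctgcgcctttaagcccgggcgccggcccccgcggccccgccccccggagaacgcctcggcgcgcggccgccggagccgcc
The DUSP1 window holds 1 full CRE, 125 bases before the start, flanked by half-sites at 172 and 111 bases, and a TATA box 30 bases before the start. DUSP8 holds 2 full CREs, at 118 and 74 bases, and DUSP7 has no capitals. The DUSP8 window lies at 1 start of a gene whose RefSeq extent reaches farther upstream. Over 300 bases (250 before and 50 after the start), a full CRE was in 1.85% of 35116 RefSeq promoter windows, a half-site in 24.6% and TATAAA in 11.5%. A full CRE was in 2 of the 10 windows of the 8 family genes read, those of DUSP1 and DUSP8. The windows of the other 2 family genes were not read. Half-sites include those within a full CRE, and DUSP10 was the only other family gene with one. The motifs of AP-1 (TGANTCA), TEAD (GGAATG) and ETS factors (CCGGAAG), searched on both strands, and the CArG box of SRF were in none of the 10 windows of these 8 genes, against 7.71%, 14%, 10.3% and 1.29% of all windows. The family windows ran from 55.0% to 78.3% GC, with DUSP1 at 73.3% and DUSP7 at 78.0%, against a median of 58.7% over all windows. The shares over all windows were not matched for GC content, so they are no like-for-like background. These matches describe letters in a window and say nothing about binding.

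Among the inducible nuclear enzymes, DUSP1 (NCBI Gene 1843, chromosome 5, 172768096 to 172771195) encodes MKP-1, an immediate early phosphatase that acts on p38, JNK and ERK. The siControl libraries had 17.70, 17.02 and 17.37 FPKM of it and the siDUB1 libraries 4.87, 5.42 and 2.82 FPKM. The control libraries were nearly equal, all siDUB1 libraries lay far below them, and replicate 3 was the lowest. Its mean of 17.4 ± 0.340 FPKM (SD of 3 libraries, here and below) fell to 4.37 ± 1.37 FPKM, 3.97 times lower (limma, log2 change -1.81, SE 0.21, adjusted p = 0.00618). By mean level over all 18597 genes its rank went from 4306 to 8146.

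DUSP4 (NCBI Gene 1846, chromosome 8, 29333064 to 29350684) encodes MKP-2, a nuclear phosphatase of ERK and JNK. It stood at 127, 116 and 121 FPKM in siControl and at 71.4, 72.0 and 52.7 FPKM after siDUB1. The groups did not overlap, and replicate 3 was again the lowest. The mean fell from 121 ± 5.93 to 65.4 ± 10.98 FPKM, a ratio of 0.539 (log2 change -0.89, SE 0.14, adjusted p = 0.0130), and DUSP4 stayed the most abundant gene of the family.

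Both calls were lost with any 1 siControl library left out. With siControl replicate 1, 2 or 3 removed, DUSP1 had limma adjusted p-values of 0.0572, 0.0501 and 0.0554, at log2 changes of -1.8 to -1.82, and DUSP4 of 0.0835, 0.0723 and 0.0830, at -0.86 to -0.93. In those fits 125, 147 and 136 of all 10994 genes were called. Without siDUB1 replicate 3 the log2 change was -1.58 for DUSP1 (adjusted p = 3.02e-09) and -0.75 for DUSP4 (adjusted p = 2.14e-07). That fit called 6299 of all 10994 genes.

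DUSP2 (NCBI Gene 1844, chromosome 2, 96143169 to 96145440) encodes PAC-1, a nuclear phosphatase first known from activated lymphocytes. Its values were 16.57, 19.16 and 17.48 FPKM in siControl and 14.08, 13.95 and 15.91 FPKM in siDUB1. The groups were separate by a narrow margin, and here siDUB1 replicate 3 was the highest of its group by FPKM. The log2 change was -0.26 (95% confidence interval -0.52 to 0.00) and did not pass (limma, adjusted p = 0.154). It was -0.32 without siDUB1 replicate 3 (adjusted p = 0.00160) and -0.55 after correction for transcript GC content and length (adjusted p = 0.0350). DUSP5 (NCBI Gene 1847, chromosome 10, 110497907 to 110511533), whose product is a nuclear phosphatase specific for ERK, was listed at 0.10, 0.12 and 0.10 FPKM in siControl and at 0.14, 0.12 and 0 FPKM in siDUB1. It was below the level tested.

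Among the cytoplasmic enzymes, DUSP6 (NCBI Gene 1848, chromosome 12, 89347235 to 89352501) encodes MKP-3, the phosphatase of ERK whose own transcription is a classical readout of ERK activity. It stood at 8.25, 7.43 and 9.32 FPKM in siControl, and at 19.06, 19.28 and 5.82 FPKM after siDUB1. Replicates 1 and 2 were above every control and replicate 3 was below every control, so the groups overlapped. With all 6 libraries the log2 change was 0.60 (SE 0.43, 95% confidence interval -0.43 to 1.62) and did not pass (limma, adjusted p = 0.346). Without siDUB1 replicate 3 it was 1.12 (SE 0.08, adjusted p = 3.14e-07), and the mean of 19.2 FPKM in the remaining siDUB1 libraries was 2.30 times that of the controls. That fit leaves out the library in which DUSP6 went the other way, and it called 6299 of all 10994 genes. Without siDUB1 replicate 1 or 2 the log2 change was 0.34 and 0.33. DUSP6 lies within the extent of the read-through gene POC1B-DUSP6, which has no values in these data and was not analysed.

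DUSP7 (NCBI Gene 1849, chromosome 3, 52048919 to 52056571), which encodes the closely related ERK phosphatase MKP-X, went the other way from DUSP6 in siDUB1 replicates 1 and 2. It stood at 18.59, 16.55 and 16.94 FPKM in siControl and at 12.01, 12.10 and 10.16 FPKM in siDUB1. No siDUB1 library reached the lowest control. The mean fell from 17.4 ± 1.08 to 11.4 ± 1.10 FPKM (limma, log2 change -0.57, SE 0.12, adjusted p = 0.0279). That call was lost without siControl replicate 1, 2 or 3 (adjusted p = 0.140, 0.118 and 0.133) and without siDUB1 replicate 1 or 2 (0.0717 and 0.0562), at log2 changes of -0.52 to -0.61. DUSP9 (NCBI Gene 1852, chromosome X, 153642441 to 153651326), whose product MKP-4 is known from placenta, was listed at 0.02 to 0.04 FPKM in siControl and 0.02 to 0.11 FPKM in siDUB1 and was not tested.

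Among the enzymes selective for JNK and p38, DUSP8 (NCBI Gene 1850, chromosome 11, 1554051 to 1572848) stood at 13.28, 12.31 and 12.37 FPKM in siControl and at 7.33, 7.87 and 8.51 FPKM in siDUB1. The groups were well apart, and by FPKM siDUB1 replicate 3 was the highest of its group, though the lowest after the GC and length correction. The mean fell from 12.7 ± 0.544 to 7.90 ± 0.591 FPKM (limma, log2 change -0.62, SE 0.11, adjusted p = 0.0198). The call was lost without siControl replicate 1, 2 or 3 (adjusted p = 0.117, 0.107 and 0.112), without siDUB1 replicate 1 or 2 (0.0721 and 0.0550), with size factors (0.0513) and with quantile normalization (0.0684), at log2 changes of -0.51 to -0.64. DUSP8 overlaps the RefSeq genes LOC124902608 and KRTAP5-AS1, and DUSP7 overlaps LOC124906238, none of which has values in these data. With the use of strand not given in the sources used here, reads of overlapping genes cannot be told apart.

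DUSP10 (NCBI Gene 11221, chromosome 1, 221701424 to 221742089), which encodes MKP-5, was the lowest of the 8 tested genes, at 3.13, 2.60 and 2.66 FPKM in siControl and 1.94, 1.46 and 0.86 FPKM in siDUB1. The groups did not overlap, yet the log2 change of -0.67 (95% confidence interval -1.11 to -0.23) missed the threshold (limma, adjusted p = 0.0583). It passed with size factors (0.0415), with quantile normalization (0.0296), with a correction for transcript GC content and length (0.0253) and without siDUB1 replicate 3 (0.00135). DUSP16 (NCBI Gene 80824, chromosome 12, 12473282 to 12562863), which encodes the JNK phosphatase MKP-7, stood at 9.69, 9.51 and 9.52 FPKM in siControl and at 9.61, 9.93 and 4.38 FPKM in siDUB1. siDUB1 replicates 1 and 2 were level with the controls and replicate 3 was well below them. Its log2 change was -0.31 with all libraries (95% confidence interval -0.99 to 0.37, adjusted p = 0.453) and 0.03 without siDUB1 replicate 3 (95% confidence interval -0.11 to 0.17, adjusted p = 0.745). It was -0.17 after the GC and length correction (adjusted p = 0.545).

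Leaving out siDUB1 replicate 3, 6 of the 8 tested genes were lower and 1 was higher, where that fit called 25.6% of all tested genes lower and 31.7% higher. The remaining gene was DUSP16.

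**Figure D2:**
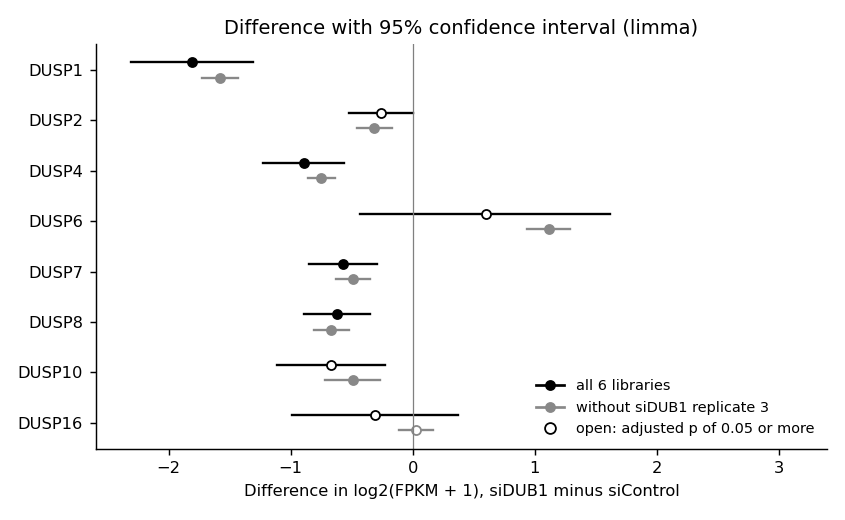
Difference in log2(FPKM + 1), siDUB1 minus siControl, with its 95% confidence interval from limma, for the 8 tested genes with all 6 libraries (black) and without siDUB1 replicate 3 (grey). Filled points have an adjusted p under 0.05, and the interval of DUSP6 runs from -0.43 to 1.62 with all libraries and from 0.94 to 1.29 without replicate 3.

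The order of the genes by level changed with these differences. In siControl DUSP4 was far above the rest, DUSP2, DUSP7 and DUSP1 followed at 17.7, 17.4 and 17.4 FPKM with overlapping ranges, and then came DUSP8, DUSP16, DUSP6 and DUSP10 at 12.7, 9.57, 8.33 and 2.80 FPKM. The ranges of these last 4 did not overlap each other. In siDUB1 DUSP4 still led, and DUSP6 and DUSP2 were next at 14.7 ± 7.71 and 14.6 ± 1.10 FPKM, with ranges that overlapped, and the range of DUSP6 also took in those of DUSP7 and DUSP8 and met that of DUSP16. DUSP7 followed at 11.4 FPKM, then DUSP16 and DUSP8, with overlapping ranges, at 7.97 ± 3.12 and 7.90 ± 0.591 FPKM. DUSP1 at 4.37 FPKM overlapped DUSP16 and stood above DUSP10 at 1.42 FPKM.

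Shares of the family within a library do not depend on how libraries are scaled. They are not free of the difference with transcript GC content in siDUB1 replicate 3 that is given below. A share also rises where other genes of the sum fall. The summed FPKM of the 10 genes was 215, 200.3 and 207 in siControl and 140.5, 142 and 101 in siDUB1. DUSP4 held 58.5% ± 0.819 of this sum in siControl and 51.2% ± 0.775 in siDUB1 (SD, n = 3 in each group), a difference of -7.34 percentage points that had the same direction in 3 of 3 libraries (exact permutation test, two-sided, p = 0.1, the smallest that 3 against 3 can give). With groups that do not overlap the test could give no other p, so it adds nothing to the values. The shares of DUSP1, DUSP2 and DUSP6 did not overlap between groups either and were not tested. DUSP1 held 8.24%, 8.497% and 8.40% in siControl and 3.47%, 3.81% and 2.79% in siDUB1. DUSP6 held 3.84%, 3.71% and 4.51% in siControl and 13.6%, 13.6% and 5.75% in siDUB1, so that its share was above the controls also in replicate 3, where its FPKM was not. DUSP2, with lower FPKM in siDUB1, held a larger share there, 10.02%, 9.81% and 15.7% against 7.72%, 9.57% and 8.46%. The ratio of DUSP6 to DUSP1, a pair chosen after their values were seen, was 0.466, 0.437 and 0.537 in siControl and 3.91, 3.56 and 2.06 in siDUB1. DUSP1 was thus the more abundant of the pair in every control and DUSP6 in every siDUB1 library.

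**Figure D3:**
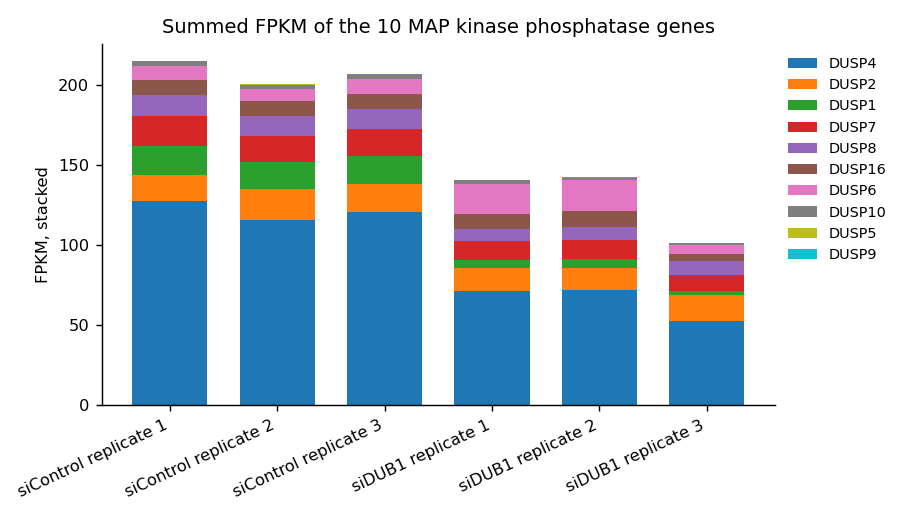
FPKM of the 10 genes stacked for each library. The sum is 200.3 to 215 in the 3 siControl libraries and 101 to 142 in the siDUB1 libraries, and the DUSP6 segment widens in siDUB1 replicates 1 and 2 while that of DUSP1 narrows in all 3.

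The library that stood apart, siDUB1 replicate 3, differed from replicates 1 and 2 with the GC content of transcripts. The median difference in log2(FPKM + 1) was -0.86 for the lowest of 10 equal GC bins of the tested genes and 0.40 for the highest. The family genes followed that order in part. DUSP8 and DUSP2, with transcripts of 64.6% and 63.9% GC, were higher in replicate 3 by 0.15 and 0.17, where the median of their bin was 0.40. DUSP10 and DUSP16, at 45.6% and 45.3% GC, differed by -0.53 and -1.0, where the median of their bin was -0.54. DUSP6 was farthest from its bin, at -1.56 with 50.5% GC and a bin median of -0.17, and 1.65% of all tested genes were as low or lower. Of the 8 genes, 7 were below the median of their bin and DUSP10 was above it by 0.01. After correction of each library for transcript GC content and length, DUSP6 was at 3.26, 3.10 and 3.39 on the log2 scale in siControl and at 4.31, 4.33 and 2.70 in siDUB1, so replicate 3 remained below the controls. The corrected siDUB1 values were 3.12, 3.22 and 2.92 for DUSP8 and 3.95, 3.98 and 3.52 for DUSP2, with replicate 3 now lowest. For DUSP10 they were 1.53, 1.25 and 1.27, with replicate 3 no longer lowest.

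**Figure D4:**
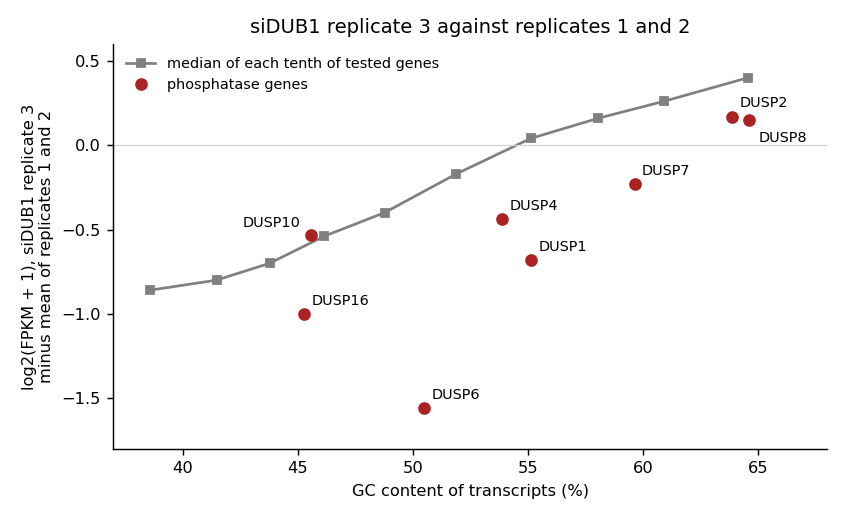
Difference in log2(FPKM + 1) between siDUB1 replicate 3 and the mean of replicates 1 and 2, against the GC content of transcripts in percent. Grey squares are medians of 10 equal GC bins of the tested genes, from -0.86 to 0.40, and red points are the 8 tested family genes, of which DUSP6 lies farthest from the grey line at -1.56.

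Genes that ERK signalling induces gave a mixed picture beside the phosphatases. Of 19 such feedback and output genes outside the family, 18 were tested (limma). Of these 3 rose, 1 fell and 14 missed the threshold, where 8.13% of all tested genes rose and 5.92% fell. Their median log2 change was -0.07, against -0.06 over all tested genes. It was 0.18 with siDUB1 replicate 3 left out, against 0.02 over all tested genes. IER3, an early response gene, rose from 176 ± 5.76 to 289 ± 32.7 FPKM (adjusted p = 0.0112), and ETV4, an ETS transcription factor, from 31.05 ± 0.50 to 51.8 ± 9.90 FPKM (adjusted p = 0.0254). CCND1, the gene of a G1 cyclin, went down from 295 ± 16.2 to 133 ± 17.0 FPKM (adjusted p = 0.00399). After the GC and length correction the log2 change of IER3 was 0.45 in place of 0.71 and that of ETV4 0.46 in place of 0.70, both called, and siDUB1 replicate 3 was the highest library for both. The ETV4 call was lost with size factors (adjusted p = 0.0553). The third that rose was the immediate early factor EGR1, at 11.62, 9.55 and 10.08 FPKM in siControl and 44.2, 49.7 and 17.4 FPKM in siDUB1 (adjusted p = 0.0386). For EGR1 and FOS, named after their values were seen, replicate 3 lay below the mean of replicates 1 and 2 by 1.38 for EGR1 and by 1.31 for FOS on the log2 scale, although both genes stayed above the controls there. FOS stood at 3.92, 3.38 and 3.76 FPKM in siControl and at 14.95, 15.24 and 5.47 FPKM in siDUB1 and did not pass (adjusted p = 0.0564). Without siDUB1 replicate 3, 8 of the 18 genes were higher, among them PHLDA1, ETV5 and SPRY4 at log2 changes of 0.72, 0.51 and 0.33, and 3 were lower, where 31.7% of all tested genes were higher in that fit and 25.6% were lower.

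**Figure D5:**
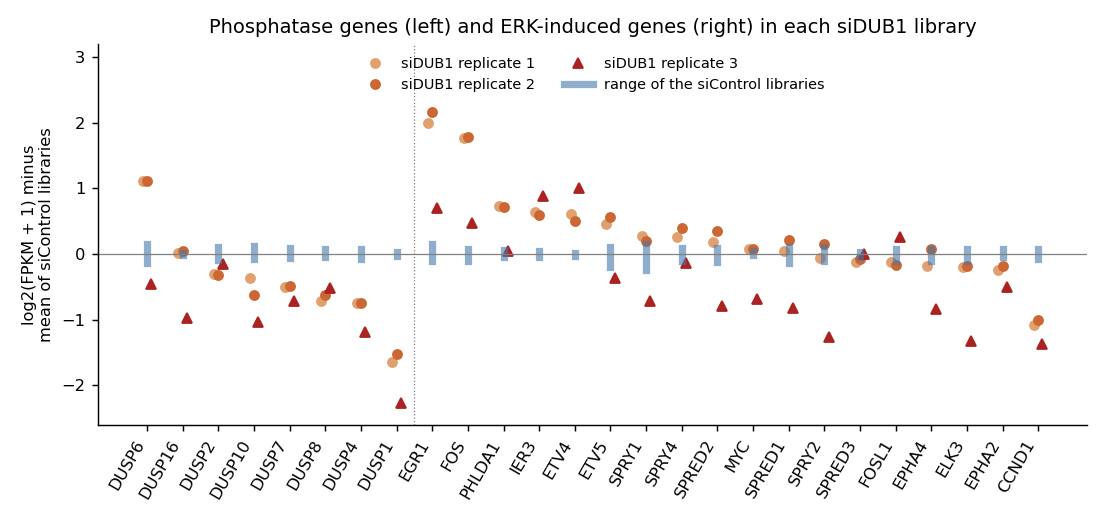
Difference in log2(FPKM + 1) of each siDUB1 library from the mean of the siControl libraries, for the 8 tested phosphatase genes (left) and 18 ERK-induced genes (right), with blue bars for the range of the siControl libraries. In siDUB1 replicates 1 and 2 DUSP6 lies at 1.11 and 1.12 and EGR1 at 1.99 and 2.16, against -0.45 and 0.70 in replicate 3, while DUSP1 is the lowest phosphatase gene in all 3.

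Of 20 genes of the ERK cascade and its scaffolds 19 were tested. Of these 2 rose, 1 fell and 16 missed the threshold, where 8.13% of all tested genes rose and 5.92% fell. Their median log2 change was -0.25, against -0.06 over all tested genes. It was -0.03 with siDUB1 replicate 3 left out, against 0.02 over all tested genes. MAPK3, the gene of ERK1, rose from 78.0 ± 3.66 to 129 ± 23.5 FPKM (limma, adjusted p = 0.0239), and MAP2K5, an upstream kinase of ERK5, from 5.89 ± 0.498 to 8.77 ± 0.288 FPKM (adjusted p = 0.0367). For MAPK3, siDUB1 replicate 3 was the highest library, the log2 change was 0.41 after the GC and length correction in place of 0.71, and the call was lost with size factors (adjusted p = 0.0550). KSR1, a scaffold of the cascade, fell from 5.13 ± 0.294 to 2.90 ± 0.766 FPKM (adjusted p = 0.0489). Its call was lost with pseudocounts of 0.1 and 0.01 (0.0598 and 0.0617) and without siDUB1 replicate 1 (0.103). Without the filter on low values the calls of KSR1 (0.0835) and MAP2K5 (0.0544) were both lost.

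Of 28 genes of the JNK and p38 cascades 23 were tested and 0 passed with limma. At an unadjusted p under 0.05, 4 were higher and 3 lower, where all tested genes gave 18.2% higher and 15.3% lower. The median log2 change of the 23 was -0.18, and -0.05 with siDUB1 replicate 3 left out. The p38 genes MAPK13 and MAPK11 had the smallest p, with means of 13.1 and 17.5 FPKM for MAPK13 and of 1.82 and 1.27 FPKM for MAPK11 in siControl and siDUB1 (adjusted p = 0.0646 and 0.0886). After the GC and length correction the log2 change was 0.19 in place of 0.38 for MAPK13 (adjusted p = 0.145) and -0.52 in place of -0.31 for MAPK11 (adjusted p = 0.0226). Of 9 tested kinases that MAP kinases activate, 1 fell and 8 missed the threshold, where 5.92% of all tested genes fell and 8.13% rose. Their median was -0.02, against -0.06 over all tested genes. The gene that fell, MAPKAPK2, which carries the p38 signal to messenger RNA stability, went from 61.4 ± 2.11 to 44.5 ± 3.404 FPKM (adjusted p = 0.0250). Its call was lost without siDUB1 replicate 1 or 2 (limma, adjusted p = 0.0682 and 0.0523).

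Of 21 other dual-specificity and MAP kinase tyrosine phosphatases 19 were found and 10 were tested, with a median log2 change of -0.27. That median was -0.06 with siDUB1 replicate 3 left out, against 0.02 over all tested genes. Of the 10, 2 fell, 0 rose and 8 missed the threshold, where 5.92% of all tested genes fell and 8.13% rose. At an unadjusted p under 0.05, 3 were lower and 1 higher, against 15.3% and 18.2% of all tested genes. DUSP3, the small phosphatase VHR, fell from 20.1 ± 0.910 to 10.99 ± 1.97 FPKM (limma, adjusted p = 0.0192), and DUSP14 from 50.8 ± 2.04 to 36.2 ± 1.26 FPKM (adjusted p = 0.0167), a call lost with size factors (0.0553). Whether the 10 genes of the family and these other lists differ was not tested. With each siControl library left out, CCND1 was the only gene of these 5 lists that still passed. With siDUB1 replicate 1 left out only CCND1 and IER3 passed, and the calls of DUSP3 and DUSP14 were lost (limma, adjusted p = 0.0569 and 0.0597).

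Across the 6 libraries the genes outside the family whose log2(FPKM + 1) was most like that of DUSP1, the family gene with the largest change, were SGTB, LAMA3 and ANKRD1, with Pearson correlations of 0.9997, 0.9996 and 0.9996. This is a description over 6 libraries in 2 groups, and 132 tested genes had a correlation above 0.99. ANKRD1 stood at 103, 103 and 100.4 FPKM in siControl and at 22.1, 24.1 and 11.2 FPKM in siDUB1, the laminin gene LAMA3 at 41.7, 40.1 and 40.7 against 18.05, 19.3 and 12.6 FPKM, and SGTB at 6.06, 5.74 and 6.0 against 2.47, 2.63 and 1.63 FPKM. All 3, like DUSP1, had siDUB1 replicate 3 lowest.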

How the data were processed

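RNA was extracted with Trizol and sequenced on the BGISEQ-500 platform, per the labels' protocols, and reads were placed on GRCh38, per the submitters' processing notes. The authors deposited FPKM values with 2 decimals for 18597 NCBI Gene IDs in each of 6 files, per the file headers. Aligner, counter, annotation and strand are not given in the sources used here. A RefSeq gene table (GRCh38.p14) named 18437 IDs.

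Genes with at least 1 FPKM in at least 3 libraries (10994) were compared as log2(FPKM + 1), a scale that understates changes of low genes, with limma 3.58.1 in R 4.3.3 (eBayes with trend, two-sided, no covariate). The Benjamini-Hochberg adjustment took in every tested gene, with a threshold of 0.05. The test was checked on simulated data with independent normal noise for each gene. Those data held no library that stood apart, so the check does not cover one like siDUB1 replicate 3. The correction for transcript GC content and length used natural splines with 4 degrees of freedom each on GENCODE transcripts (10907 genes).

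The members, gene lists and motifs were chosen with earlier results of these data known. Named list genes were up to 2 risen and 2 fallen genes of smallest adjusted p, or the 2 with the smallest p where none passed. Promoters were those of the 3 members with the smallest adjusted p outside chromosome 8 that had an entry. Protein sequences are not analysed here, and some list and marker genes are not reported here.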

Additional observations from a re-analysis of the deposited data

How the results depend on the processing

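All log2 changes of DUSP1, DUSP2, DUSP4, DUSP6, DUSP7, DUSP8 and DUSP10 kept their sign in every alternative run, and DUSP16 changed sign without siDUB1 replicate 3 (0.03, or 0.06 with the GC and length correction as well) and ranged from -0.48 to 0.03 with single libraries left out. Of 18 alternatives, 15 called DUSP1, 14 DUSP4, 11 DUSP7, 10 DUSP8, 3 DUSP2, 2 DUSP6 and 0 DUSP16, and 5 of 17 called DUSP10, which the filter of 5 FPKM removed. Family genes called were 4 of 8, and 0 to 7 with single libraries left out, 7 under that correction without siDUB1 replicate 3, and 1 with the replicate block, DUSP1. Genes called overall were 1545, and 2474 with quantile normalization, 2660 with the GC and length correction, 6349 with that correction and without siDUB1 replicate 3, 179 with the replicate block, and 125 to 6299 with single libraries left out. Members called in the 5 other lists were 10, and 20 with the GC and length correction, 43 with it and without siDUB1 replicate 3, 1 with the replicate block and 1 to 41 with single libraries left out. The USP36 call was lost without the low-value filter (-0.87), with pseudocounts of 0.1 (-1.03) and 0.01 (-1.05), with the replicate block (-0.87), with that block and the GC and length correction (-1.13), and in 5 of 6 fits with a library left out, and over all 6 such fits the log2 change was -1.02 to -0.68. The labels do not say whether replicate numbers pair the libraries. Deviations of same-numbered ones from their group means correlated at 0.254, -0.491 and -0.227, and not every library correlated best with its own number. Deviations within a group are not independent of each other, so these values cannot decide whether libraries were paired. The causes of these shifts were not tested. Fits with fewer libraries or with the block have fewer residual degrees of freedom. Among fits with 1 library left out, calls went to 6299 without siDUB1 replicate 3 and to 125 without siControl replicate 1. Sequencing depth is unknown, so what it limits for DUSP5 and DUSP9 cannot be given.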
